A study of Mus musculus with 123 samples.

Results

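The genes described here encode ribosomal proteins, and 21 of the 13053 genes measured in mouse lung were of this kind. They were chosen by name: the platform's gene symbol begins with Rpl or Rps and a digit, kinases of the Rps6k family and pseudogene symbols were left out, and the brightest probe set (a group of short array probes for 1 transcript) stood for each gene. This naming rule uses no measured difference between the groups, though the genes were chosen with earlier results of these data known. By textbook role, 7 members are proteins of the large cytosolic subunit (Rpl4, Rpl10a, Rpl12, Rpl13a, Rpl14, Rpl22 and Rpl35) and 9 are proteins of the small subunit (Rps3, Rps9, Rps10, Rps14, Rps15, Rps18, Rps20, Rps24 and Rps25). A further 4 are paralogues named after a subunit protein (Rpl3l, Rpl7l1, Rpl39l and Rps4l), and Rps19bp1 is a nucleolar protein named for its binding to a ribosomal protein and is not a subunit. A further 19 probe sets carried several symbols, at least 1 of them a ribosomal protein gene, and are described apart from the 21 genes.

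RNA from whole lungs of 123 BALB/c mice was hybridised to Affymetrix 3′ expression arrays, with 1 array per mouse. The mice were either naive (61 mice) or sensitized to ovalbumin (OVA), a model of allergic asthma (62 mice), and were killed at 0, 2, 6, 24, 48, 72, 96 or 168 h after the challenge. Each of the 16 groups held 8 mice, except naive mice at 2, 48 and 96 h (7 mice each) and sensitized mice at 24 h (6 mice). The series' design has both arms challenged with OVA, but PBS stands in each naive title, and which of these the naive mice were given is unclear. Whether the mice at 0 h had been challenged is not stated. The arrays read whole lung, so fewer cells of a type and less RNA per cell cannot be told apart.

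A ribosome is built from a small subunit, which reads the messenger RNA, and a large subunit, which joins amino acids. Subunit proteins are needed in equal numbers, and their genes are among the most strongly transcribed in growing cells. Their messages are known for a tract of C and T bases at the very start, the 5′ terminal oligopyrimidine or TOP motif, through which the growth-controlling kinase mTORC1 regulates their translation. Assembly takes place in the nucleolus with the help of a separate set of biogenesis factors, many of them under the transcription factor Myc.

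The sequences around the annotated starts are given for members whose values are described in detail below, to show where runs of C and T lie near the start. A run in this window is a description of the letters and does not show that a message begins with a TOP motif. RefSeq's promoter table (GRCm38.p6) held 18 of the 21 genes with 22 starts, and Rps14, Rps20 and Rps4l were not among them. Each sequence runs 5′ to 3′ on the gene's strand, from 10 bases before the annotated start to 20 bases from it, and so holds the first bases of exon 1. Capitals mark the longest unbroken run of C and T where it had 6 or more bases.

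Rpl12, chr2:32961702-32961731, plus strand: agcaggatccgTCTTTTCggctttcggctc
Rpl35, chr2:39005112-39005141, minus strand: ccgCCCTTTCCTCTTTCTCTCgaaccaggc
Rps18, chr17:33955646-33955675, minus strand: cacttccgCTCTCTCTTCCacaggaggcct
Rps10, chr17:27635225-27635254, minus strand: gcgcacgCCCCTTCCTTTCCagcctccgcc
Rps9, chr7:3704031-3704060, plus strand: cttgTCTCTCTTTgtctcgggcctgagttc
Rpl13a, chr7:45128726-45128755, minus strand: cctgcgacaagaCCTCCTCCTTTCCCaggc
Rps25, chr9:44407704-44407733, plus strand: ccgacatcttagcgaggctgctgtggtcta
Rpl22, chr4:152324426-152324455, plus strand: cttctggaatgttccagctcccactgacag

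A run of at least 6 C or T bases on the sense strand stood in this window at 1 or more starts of 11 of the 18 genes (61.1%), against 32.1% of all 27025 genes in the table. In Rpl4, Rpl10a and Rpl39l the run ended before the annotated start and so lay outside the annotated message. A run that reached the start or lay beyond it stood in 8 of the 18 genes (44.4%), against 25.3% of all genes. The longest run was at Rpl35, with 18 bases, followed by Rpl13a and Rpl14 with 14, Rps10 with 13 and Rps18 with 11. Rps25, Rpl22 and Rps3 were among the genes without one, Rpl22 at both of its starts. Rpl35 and Rps25 both rose at 6 h, as given below, the first with a long run in the window and the second with none.

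On the probe sets that stood for them, the ribosomal protein genes did not move as a block. At 6 h after challenge 12 of the 21 were higher in sensitized than in naive mice and 1 was lower (limma, Benjamini-Hochberg adjusted p under 0.05 over all 13053 genes). Rpl4, Rpl10a, Rps9 and Rps10, whose probe sets were among the brightest of the set, differed by at most 0.05 on the log2 scale. Rpl12 and Rpl35, on dimmer probe sets, were more than doubled on the fitted scale. Dimmer probe sets of Rps9 and Rps10, described below, were higher too, with 7 and 8 of 8 sensitized mice above all naive mice. Among all genes 57.8% were called at 6 h, 24.6% higher and 33.2% lower. The members' share higher was thus 57.1%, and their share called in either direction, 61.9%, lay near the background. Their median difference was 0.19, against -0.04 over all genes.

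**Figure D1:**
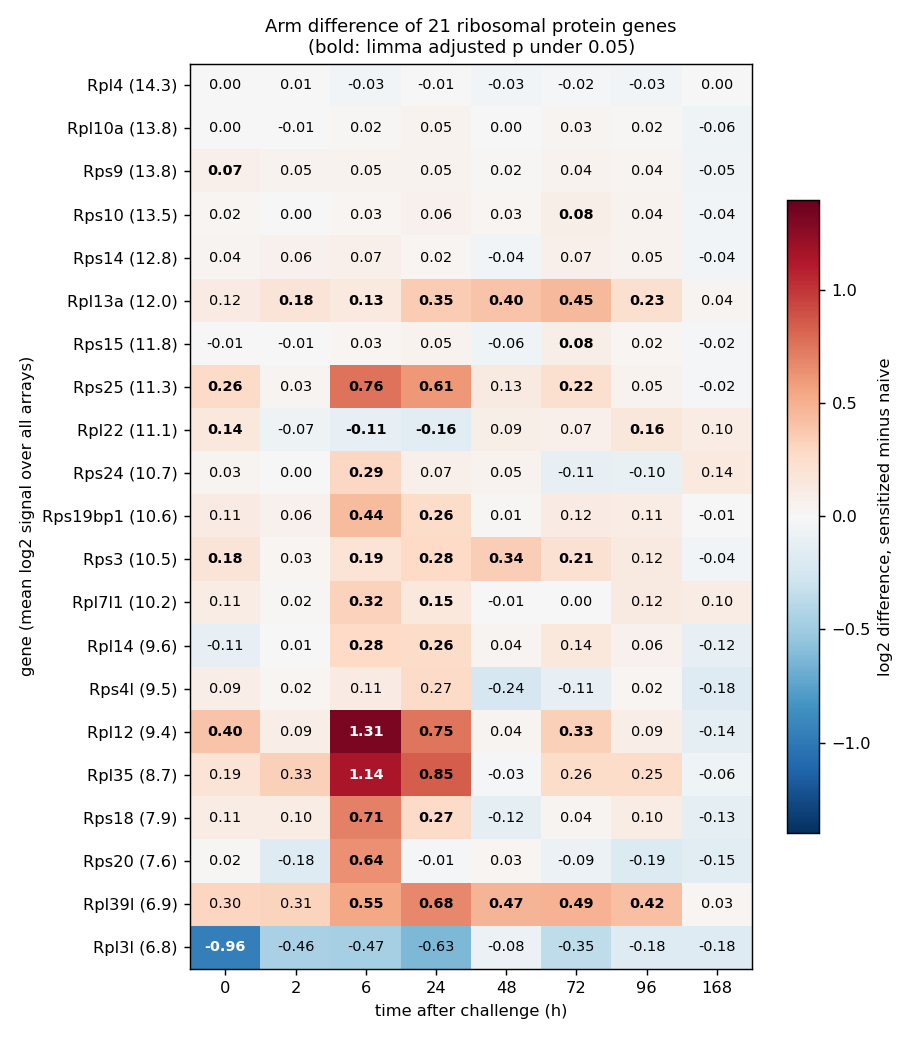
Log2 difference between sensitized and naive mice for the 21 genes (vertical, ordered by mean log2 signal, given in brackets) at the 8 times (horizontal, h after challenge); colour and number give the difference, and bold marks a limma adjusted p under 0.05. The largest differences stand at 6 and 24 h in the lower part of the map, such as 1.31 for Rpl12 at 6 h, while the rows at the top stay near 0.

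Rpl12, a protein near the stalk of the large subunit where translation factors dock, changed most. At 6 h its log2 signal was 8.76 at the lowest, 8.91 at the median and 9.20 at the highest in the 8 naive mice. In the 8 sensitized mice it was 9.40, 10.37 and 10.79, so every sensitized mouse lay above every naive one. The difference was 1.31 ± 0.14 (SE), a 2.48-fold higher signal (limma adjusted p = 2.63e-14). Here and for the other genes, SE and p rest on a spread pooled over all groups. Over 27 refits, listed in the closing section, the limma adjusted p of this call was at most 0.000562. Over all genes, 1.5% had all sensitized mice above all naive mice at 6 h, and 3 of the 21 members did: Rpl12, Rps25 and Rps20.

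Rpl35, which sits at the exit of the tunnel through which the new protein leaves, ran from 8.11 through a median of 8.37 to 8.56 in naive mice at 6 h. In sensitized mice it ran from 8.48 through 9.69 to 9.999. The mean was 2.21-fold higher (1.14 ± 0.17 SE on the log2 scale, limma adjusted p = 1.99e-08), with 6 of the 8 sensitized mice above all naive mice and the other two inside the naive range.

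Rps25, a small subunit protein known for its part in initiation at internal ribosome entry sites, was at 10.95, 11.02 and 11.12 (lowest, median, highest) in naive mice at 6 h. It was at 11.17, 11.94 and 12.10 in sensitized mice. The arms did not overlap, and the difference was 0.76 ± 0.09 (SE; limma adjusted p = 1.12e-11).

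Rps18, a protein of the small subunit's head, ran from 7.71 through 7.85 to 8.04 in naive mice and from 7.90 through 8.74 to 8.88 in sensitized mice at 6 h. Of the 8 sensitized mice 7 lay above all naive ones, and the difference was 0.71 ± 0.08 (SE; limma adjusted p = 8.67e-12). Rps20, also of the head, was at 7.40, 7.56 and 7.69 in naive mice and at 7.78, 8.23 and 8.48 in sensitized mice, again without overlap. Its difference was 0.64 ± 0.08 (SE; limma adjusted p = 2.2e-11).

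The remaining higher genes at 6 h had smaller differences and overlapping arms. Rps24 rose by 0.29 ± 0.08 (SE), from a naive median of 10.66 (10.45 to 10.81) to a sensitized median of 10.96 (10.52 to 11.20). Rpl14 rose by 0.28 ± 0.07 (SE), from 9.45 (9.24 to 9.59) to 9.71 (9.47 to 9.98). Rps3, which also repairs damaged DNA outside the ribosome, was 0.19 ± 0.05 (SE) higher, and Rpl13a, known for a second role in silencing inflammatory messages, was 0.13 ± 0.05 (SE) higher. The call of Rpl13a at 6 h was lost without sensitized replicate 6 (0.10) and without sensitized replicate 7 (0.11). It was also lost when the mice of 6 h were fitted alone (limma adjusted p = 0.107) and without the squamous arrays described below (0.12, limma adjusted p = 0.0712). Rps19bp1, the nucleolar binding partner, rose by 0.44 ± 0.06 (SE), from 10.49 (10.43 to 10.61) to 11.02 (10.49 to 11.24).

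Rpl22 went the other way. This large subunit protein binds RNA and is known for its need in T cell development. At 6 h it ran from 10.89 through 11.00 to 11.14 in naive mice and from 10.76 through 10.87 to 11.12 in sensitized mice, with 5 of 8 sensitized mice below all naive ones. The difference was -0.11 ± 0.05 (SE; limma adjusted p = 0.0281), and this call was lost without naive replicate 1 or 7 or sensitized replicate 4, 5 or 7 (-0.10 to -0.09). It was also lost when the mice of 6 h were fitted alone (limma adjusted p = 0.0892) and without the squamous arrays (-0.09, limma adjusted p = 0.147). At 24 h it was -0.16 ± 0.05 (SE; limma adjusted p = 0.00696). The sensitized mice then lay between 10.73 and 10.91 and the naive mice between 10.76 and 11.13, so the arms overlapped.

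Before and after this dip Rpl22 was higher in the sensitized mice. At 0 h it ran from 10.96 to 11.16 in naive and from 11.12 to 11.27 in sensitized mice, with 6 of 8 sensitized mice above all naive mice and a difference of 0.14 ± 0.05 (SE; limma adjusted p = 0.0142). At 96 h the medians were 11.21 and 11.37 and the difference was 0.16 ± 0.05 (SE; limma adjusted p = 0.00452). The change of the difference from 0 h was -0.21 ± 0.07 (SE) at 2 h, -0.26 ± 0.07 at 6 h and -0.30 ± 0.07 at 24 h. All 3 changes passed the test (limma adjusted p = 0.0368, 0.00188 and 0.00477), the first not in several refits given in the closing section.

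**Figure D2:**
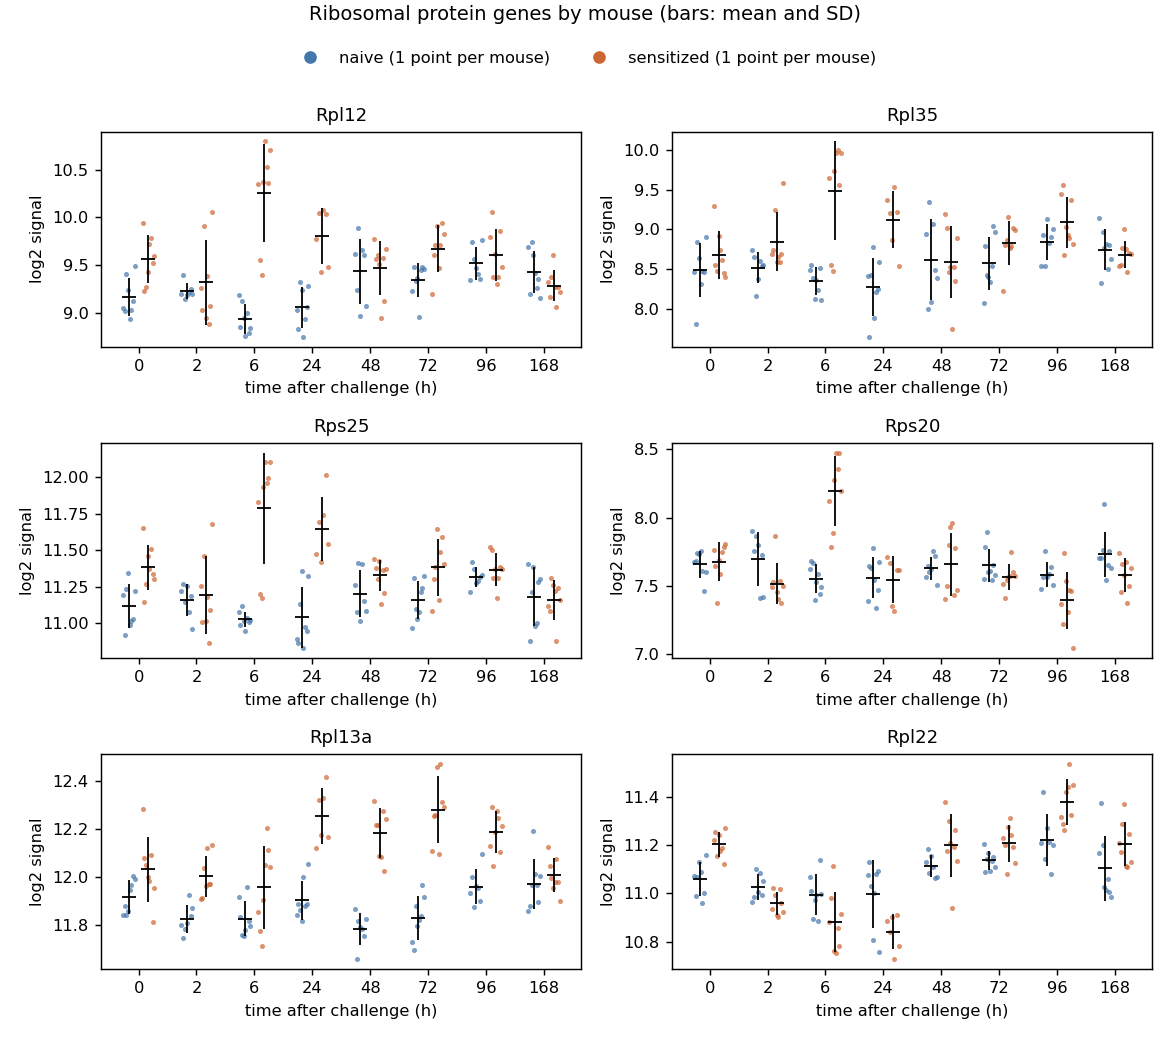
Log2 signal of 6 ribosomal protein genes (vertical, 1 scale per gene) in every mouse by time after challenge (horizontal, h), with naive mice in blue and sensitized mice in orange; black bars give the mean and SD of each group of 6 to 8 mice. Rpl12, Rpl35, Rps25 and Rps20 peak in sensitized mice at 6 h, Rpl13a stands apart from 24 to 72 h, and Rpl22 dips below the naive mice at 6 and 24 h.

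Most called changes of members from 0 to 6 h lay in the sensitized arm. From 0 to 6 h, 10 members rose and 2 fell in sensitized mice, against 21.3% and 32.4% of all genes. In naive mice 2 members rose (Rpl4 by 0.06 and Rps9 by 0.10) and none was called lower, against 4.09% and 5.11% of all genes. Rps18 rose by 0.74 ± 0.08 (SE) in sensitized mice over these 6 h, Rpl35 by 0.81 ± 0.17, Rpl12 by 0.69 ± 0.14 and Rps20 by 0.52 ± 0.08. For Rpl12 the difference between the arms was already 0.40 ± 0.14 (SE) at 0 h. Its change of 0.92 since then exceeded its sensitized rise, so its naive mean was lower at 6 h than at 0 h. The same held for Rpl35 (change 0.95) and Rps20 (change 0.62). These within-arm contrasts and those between the arms share mice at 0 and 6 h.

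The sensitized mice at 6 h were not alike. Replicate 2 was among the 2 lowest of the 8 in each of the 12 members called higher, and replicate 3 in 11 of the 12. Replicate 2 lay above all naive mice in 5 of the 12 and replicate 3 in 4, whereas replicates 5, 6, 7 and 8 did so in all 12. Replicate 3 was also 1 of the arrays high in skeletal muscle genes, and replicate 7 was high in squamous epithelium genes.

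Arrays that stood apart in this way were present in both arms. Means over 10 squamous epithelium genes were between 9.06 and 12.48 on 7 of the 123 arrays and at most 7.33 on the others, and 3 further arrays had a mean over 10 skeletal muscle genes above 8. Of these 10 arrays, 2 are naive at 6 h and 2 are sensitized at 6 h. Without the 7 squamous arrays 11 members were higher and none was lower at 6 h, with 13 past an unadjusted p of 0.05, and the difference of Rpl12 was 1.32. The lung markers Sftpc, Sftpb, Sftpa1, Scgb1a1, Ager, Hopx and Cldn5 were at 12.59 or above on every array. The lowest values of Pecam1 and Cdh5 were 11.58 and 11.18, and Foxj1 ran from 7.98 to 10.38.

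Which members were higher in sensitized than in naive mice at 6 h went with how bright their probe sets were. Of the 8 members with a mean log2 signal below 10, 6 were higher at 6 h, with a median difference of 0.59. Of the next 6 members, with means from 10.16 to 11.27, 5 were higher and 1 was lower. Of the 7 brightest members, with means from 11.77, 1 was called (Rpl13a), and their differences ran from -0.03 to 0.13. Over all genes the shares higher in these bands were 25.4%, 26.2% and 20.7%. The bands were set after the values had been seen, and across the 21 members the correlation of mean signal with the difference at 6 h was -0.38 (Pearson) and -0.52 (Spearman), a description over genes that share the same arrays.

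The brightest members are near the top of the signal range. Rpl4, a core protein lining the exit tunnel, had the highest mean of the 21 (14.31, the 99.9th percentile of all genes tested by mean signal). At 6 h it ran from 14.29 through 14.35 to 14.36 in naive mice and from 14.16 through 14.32 to 14.37 in sensitized mice. The difference was -0.03 ± 0.02 (SE; limma adjusted p = 0.074). Under quantile normalization of the deposited values the differences of Rpl10a, Rps9, Rps10 and Rps14 at 6 h were 0.06, 0.08, 0.07 and 0.10 and were called higher, and that of Rpl4 was 0.01.

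**Figure D3:**
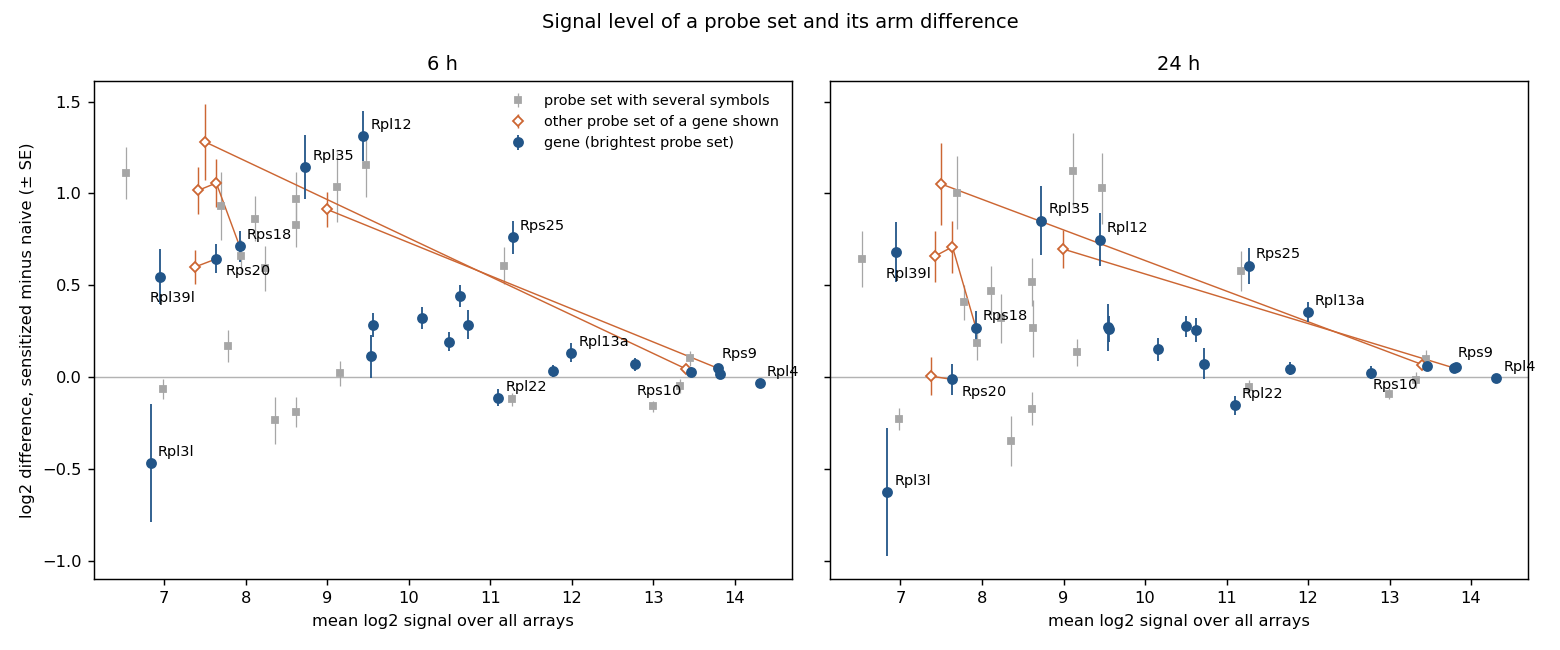
Mean log2 signal over all 123 arrays (horizontal) and log2 difference between sensitized and naive mice with its SE (vertical) at 6 h (left) and 24 h (right); filled circles are the 21 genes, open diamonds the other probe sets of 4 of these genes, joined by lines to their brightest set, and grey squares the 19 probe sets with several symbols. At 6 h the points right of 12 lie near 0, while the dim probe sets of Rps10 and Rps9 lie at 1.28 and 0.91.

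For Rps10, a small subunit protein near the messenger RNA entry, 3 probe sets could be compared in the same mice. On the brightest set the naive mice at 6 h ran from 13.32 through 13.42 to 13.47 and the sensitized mice from 13.40 through 13.43 to 13.52. The difference was 0.03 ± 0.03 (SE), and it was 0.04 ± 0.02 (SE) on the second bright set. On the dim set naive mice ran from 6.83 through 6.94 to 7.12 and sensitized mice from 7.27 through 8.24 to 9.05, with no overlap and a difference of 1.28 ± 0.21 (SE; limma adjusted p = 1.42e-07 over all probe sets). The start of Rps10 given above holds a 13-base run.

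Rps9, which sits where the small subunit unwinds messenger RNA, showed the same split. Its bright set ran from 13.70 to 13.84 in naive and from 13.78 to 13.91 in sensitized mice at 6 h, a difference of 0.05 ± 0.03 (SE). Its dim set ran from 8.47 through 8.55 to 9.01 in naive mice and from 8.68 through 9.79 to 9.86 in sensitized mice. The difference was 0.91 ± 0.09 (SE; limma adjusted p = 4.13e-14 over all probe sets), with 7 of 8 sensitized mice above all naive ones.

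The dim sets were higher at other times too. That of Rps10 was higher by 0.73 ± 0.21 (SE) at 0 h, with 8 of 8 sensitized mice above all naive ones, by 1.05 ± 0.23 at 24 h and by 0.55 ± 0.21 at 72 h. That of Rps9 was higher by 0.30 ± 0.09 (SE) at 0 h, 0.70 ± 0.10 at 24 h, 0.40 ± 0.09 at 72 h and 0.26 ± 0.10 at 96 h. These calls were made with limma over all probe sets. On the dim set of Rps9, 5 of 8 sensitized mice at 2 h and 6 of 8 at 168 h also lay above all naive ones. In the fit over genes the bright sets were called higher for Rps9 at 0 h (0.07 ± 0.03 SE) and for Rps10 at 72 h. Of 27 refits of each, 11 and 1 lost these calls.

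Within each mouse at 6 h, the dim minus the bright signal of Rps10 was -5.20 ± 0.57 in sensitized and -6.45 ± 0.12 in naive mice (SD, n = 8 each). For Rps9 it was -4.29 ± 0.43 in sensitized and -5.15 ± 0.21 in naive mice. These values restate the split between the probe sets, for which both genes were picked, and why the sets differ was not tested.

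The other genes with several probe sets had only dim ones. All 3 sets of Rps18 were higher at 6 h, by 0.71, 1.02 and 1.06, and both sets of Rps20 were higher, by 0.64 and 0.60. Of the 19 probe sets with several symbols, 11 were higher and 3 lower at 6 h, with a median of 0.59. Of the 14 of them with a mean below 10, 9 were higher and 1 was lower. Over all probe sets with a mean below 10, 24.7% were higher and 26.4% lower at 6 h.

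**Figure D4:**
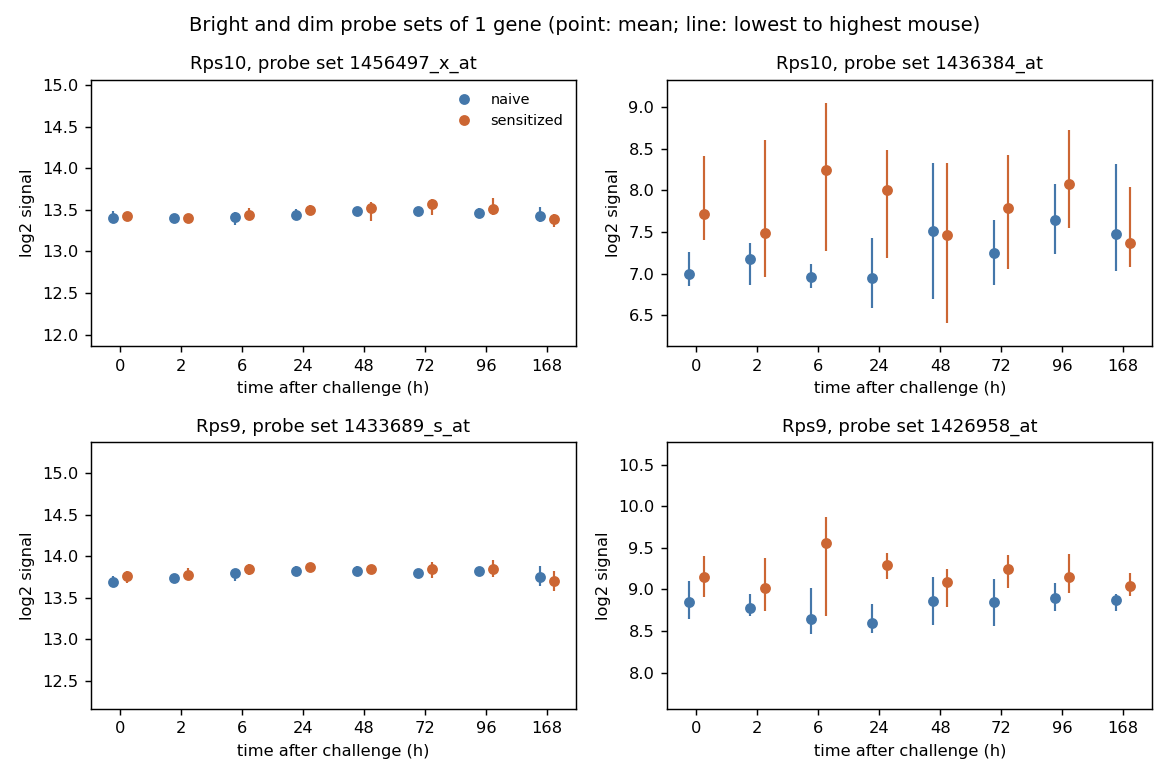
Log2 signal (vertical, each panel spanning the same number of log2 units) of the brightest (left) and the dim (right) probe set of Rps10 (top) and Rps9 (bottom) by time after challenge (horizontal, h); points are group means and lines run from the lowest to the highest mouse. The means of the arms lie close together on the left, and on the right the means of the sensitized mice (orange) stand farthest above those of the naive mice (blue) at 6 and 24 h, with smaller gaps called at 0 and 72 h and, for Rps9, at 96 h.

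At 24 h 10 members were higher and 1 was lower, against 22.8% and 24.9% of all genes. Rpl35 was 0.85 ± 0.19 (SE) higher, with sensitized mice between 8.54 and 9.54 and naive mice between 7.64 and 8.78. Rpl12 was 0.75 ± 0.15 (SE) higher, with sensitized mice between 9.43 and 10.08 and naive mice between 8.76 and 9.33. Rps25 was 0.61 ± 0.10 (SE) higher, at 11.42 to 12.01 against 10.83 to 11.35. The arms of Rpl12, Rps25, Rpl13a and Rpl39l did not overlap at 24 h, and 13% of all genes had every sensitized mouse above every naive one at that time.

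Rps20 had returned by 24 h, when its sensitized mice lay between 7.31 and 7.71, its naive mice between 7.34 and 7.77, and the difference was -0.01 ± 0.09 (SE). The fall of its difference from 6 to 24 h was -0.66 ± 0.12 (SE; limma adjusted p = 1.83e-05). Rps18 fell back in the same interval by 0.44 ± 0.13 (SE) and Rpl12 by 0.56 ± 0.20 (SE), while the difference of Rpl13a grew by 0.22 ± 0.07 (SE). Of all genes, 6.33% had a lower and 9.88% a higher difference at 24 h than at 6 h. With array weights 8 members were called lower and 2 higher in this contrast, which was added after the values had been seen, and without sensitized replicate 5 only 2 were called.

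Rpl13a was higher at 24, 48, 72 and 96 h, and these 4 calls held in each of the 26 refits run for them. It had 1 probe set with 1 symbol, so refits on the choice of probe set used the same set. A probe set naming both Rpl13a and Flt3l went the other way. On it 3 of 6 sensitized mice at 24 h lay below all naive mice, as did 6, 1 and 2 of 8 at 48, 72 and 96 h. None lay above all naive mice at these times, and why the sets differ was not tested. On its probe set with 1 symbol, to which the values that follow belong, Rpl13a ran from 11.66 through 11.79 to 11.87 in naive mice at 48 h. In sensitized mice it then ran from 12.03 through 12.22 to 12.32. At 72 h the naive mice were between 11.70 and 11.97 and the sensitized mice between 12.09 and 12.47. The arms did not overlap at either time, and the differences were 0.40 ± 0.05 and 0.45 ± 0.05 (SE; limma adjusted p = 1.01e-09 and 1.11e-12). The difference at 72 h had grown by 0.34 ± 0.07 (SE) since 0 h, and that at 96 h was 0.23 ± 0.05 (SE).

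Rps3 was higher from 0 to 72 h at every time except 2 h. Its difference was 0.18 ± 0.05 at 0 h, 0.28 ± 0.06 at 24 h, 0.34 ± 0.06 at 48 h and 0.21 ± 0.05 at 72 h (SE). At 48 h the naive mice ran from 10.16 through 10.33 to 10.54 and the sensitized mice from 10.56 through 10.68 to 10.81, without overlap. All sensitized mice lay above all naive mice in 5.98% of genes at 48 h and in 6.92% at 72 h, and Rpl13a and Rps3 were the 2 members of which this held at both times. Unlike Rpl12, Rps3 fell from 0 to 6 h in the sensitized mice, by 0.14 ± 0.05 (SE), and no change of its difference since 0 h was called.

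Counts over the full course followed these genes. At 0 h 5 members were higher and 1 was lower, against 14.2% and 12.3% of all genes, and only 3 were called without sensitized replicate 1 or without sensitized replicate 6. At 2 h 1 was higher (Rpl13a, by 0.18 ± 0.05 SE) and none was lower, against 1.84% and 1.92% of all genes. None was called without naive replicate 1, 2, 3, 4 or 6 or sensitized replicate 3, 5 or 8. At 48 h 3 were higher, against 17% of genes, and 5 were called without naive replicate 7. At 72 h 7 were higher, against 22.2%, and 4 were called without naive replicate 5 or sensitized replicate 6. At 96 h 3 were higher, against 21.2%, and 5 were called without naive replicate 2 or sensitized replicate 3. No member was lower at 48, 72 or 96 h, where 18.1%, 26.3% and 20.8% of all genes were lower. With median-centred arrays 2, 1 and 2 members were called lower there, and with quantile normalization 3, 0 and 1. Of the 19 probe sets with several symbols, 3, 4 and 3 were lower and 1, 4 and 0 higher at these times. Of the 14 with a mean below 10, 2, 2 and 3 were lower and 1, 3 and 0 higher. Over all probe sets in that band 16.7%, 25% and 17.1% were lower and 13.7%, 17.7% and 17.2% higher.

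At 168 h limma called no member in either direction, with 2 past an unadjusted p of 0.05 and 2 called with array weights, against 4.81% of all genes. Rpl12 then ran from 9.16 to 9.74 in naive and from 9.07 to 9.60 in sensitized mice. From 6 to 168 h the difference fell in 12 members and grew in Rpl22, against 16.8% and 25.8% of all genes. The largest falls were -1.45 ± 0.19 (SE) for Rpl12, -1.20 ± 0.25 for Rpl35 and -0.84 ± 0.12 for Rps18. Without the 7 squamous arrays 7 members fell and 1 grew in this contrast, which was also added after the values had been seen.

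The difference at 6 h exceeded that at 0 h in 8 members and was smaller in 1, Rpl22, against 10% and 14.6% of all genes. The 8 were Rpl35 (0.95), Rpl12 (0.92), Rps20 (0.62), Rps18 (0.61), Rps25 (0.49), Rpl14 (0.40), Rps19bp1 (0.33) and Rpl7l1 (0.21). At 24 h Rpl13a and Rpl14 had a larger and Rpl22 a smaller difference than at 0 h, against 3.39% and 2.11% of genes. At 2 h Rpl22 alone had a smaller one, against 4.34%, and at 72 h Rpl13a alone a larger one, against 1.48%. At 48, 96 and 168 h no member's difference was called changed since 0 h, with 2, 0 and 4 past an unadjusted p of 0.05. The shares of all genes called were 0%, 3.12% and 1.94%. With array weights 3 were called at 48 h, 0 at 96 h and 1 at 168 h. Moderated F tests over all times called 8 members within the naive arm, 19 within the sensitized arm and 12 for the interaction (38.1%, 90.5% and 57.1%). The shares of all genes were 38.4%, 87.8% and 62.5%, so these shares were near the background.

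The paralogues did not share 1 course. Rpl39l, a form of Rpl39 known best from testis, had a low signal (mean 6.95) and was higher in sensitized mice at 6, 24, 48, 72 and 96 h. At 6 h it ran from 6.37 through 6.75 to 7.02 in naive mice and from 6.50 through 7.50 to 7.88 in sensitized mice, a difference of 0.55 ± 0.15 (SE). At 24 h it ran from 6.51 to 7.10 in naive and from 7.21 to 7.76 in sensitized mice, a difference of 0.68 ± 0.16 (SE; limma adjusted p = 0.000309). The calls at 48 and 96 h were lost in 1 and 3 refits that left out a replicate: at 48 h naive replicate 2 (0.39), at 96 h naive replicate 3 or 7 or sensitized replicate 4 (0.33 to 0.37). That at 96 h was also lost under quantile normalization (0.35), with array weights (0.28) and when those mice were fitted alone (limma adjusted p = 0.0606).

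Rpl7l1, a relative of Rpl7 with a role in ribosome assembly, was 0.32 ± 0.06 (SE) higher at 6 h (limma adjusted p = 1.8e-06), with 7 of 8 sensitized mice above all naive ones. Its naive mice ran from 10.01 to 10.27 and its sensitized mice from 10.01 to 10.62, the lowest of them replicate 3. Rps4l was called at no time (8 differences between -0.24 and 0.27).

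Rpl3l replaces Rpl3 in the ribosomes of heart and skeletal muscle. At 0 h it ran from 6.54 through 6.89 to 9.96 in naive mice and from 5.82 through 6.49 to 6.76 in sensitized mice, a difference of -0.96 ± 0.32 (SE; limma adjusted p = 0.0201). Naive replicates 1 and 3 at 0 h are arrays with skeletal muscle gene means of 11.35 and 12.70. At that time 3 of the 10 muscle genes were lower in sensitized mice, against 12.3% of all genes. Without the squamous arrays, which include both, the difference of Rpl3l was -0.41 (limma adjusted p = 0.179). The call was also lost without naive replicate 3 (-0.59), without sensitized replicate 1 (-0.87), with array weights (-0.53) and when the mice of 0 h were fitted alone (limma adjusted p = 0.0746).

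Other genes of the pathway were counted from lists drawn up by role. Of the 41 ribosome biogenesis factors measured, 40 were higher and none was lower at 6 h, with a median of 0.47, against 24.6% and 33.2% of all genes. Not every sensitized mouse shared this. The mean of these genes at 6 h was 10.27 in sensitized replicate 3, inside the naive range of 10.26 to 10.36. It was 10.43 in replicate 2 and 10.77 to 11.02 in the other sensitized mice. Rrp12, which exports new subunits from the nucleus, rose by 1.19 ± 0.11 (SE), Nop58 and Nhp2, which belong to the particles that modify ribosomal RNA, by 0.93 ± 0.09 and 0.85 ± 0.09, and Noc4l by 0.82 ± 0.11. The gene not called was Ubtf, the activator of RNA polymerase I (0.00 ± 0.05 SE). At 24 h 17 were higher and 2 lower, against 22.8% and 24.9% of all genes. At 168 h limma called none, with 1 past an unadjusted p of 0.05, against 4.81% of all genes called.

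Translation factors and other messages with a TOP motif were split, with 8 of 17 higher and 2 lower at 6 h and a median of 0.05. The shares of all genes at 6 h were 24.6% higher and 33.2% lower. Btf3, which guards new chains at the exit tunnel, rose by 0.96 ± 0.18 (SE), the growth-arrest transcript Gas5 by 0.79 ± 0.11 and the poly(A)-binding protein gene Pabpc1 by 0.72 ± 0.14. Fau, which encodes a small subunit protein fused to a ubiquitin-like one and falls outside the naming rule, was at 0.00 ± 0.02 (SE). Proteins of the mitochondrial ribosome were higher in 36 of 62 genes and lower in 3 at 6 h, and higher in 36 and lower in 2 at 24 h, with medians of 0.14 and 0.15. At 24 h 22.8% of all genes were higher and 24.9% lower. Mrps34 rose by 0.44 ± 0.07 (SE) and Mrpl17 by 0.43 ± 0.06 at 6 h.

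Among 11 regulators of growth and ribosome synthesis, 3 were higher and 3 lower at 6 h (27.3% each), shares near the 24.6% and 33.2% of all genes. Myc rose by 1.89 ± 0.21 (SE, 3.72-fold; limma adjusted p = 7.01e-13), Cdkn1a by 0.75 ± 0.15 and the kinase gene Rps6ka3 by 0.61 ± 0.07. Tsc2, a brake on mTORC1, was lower by 0.42 ± 0.08 (difference -0.42).

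**Figure D5:**
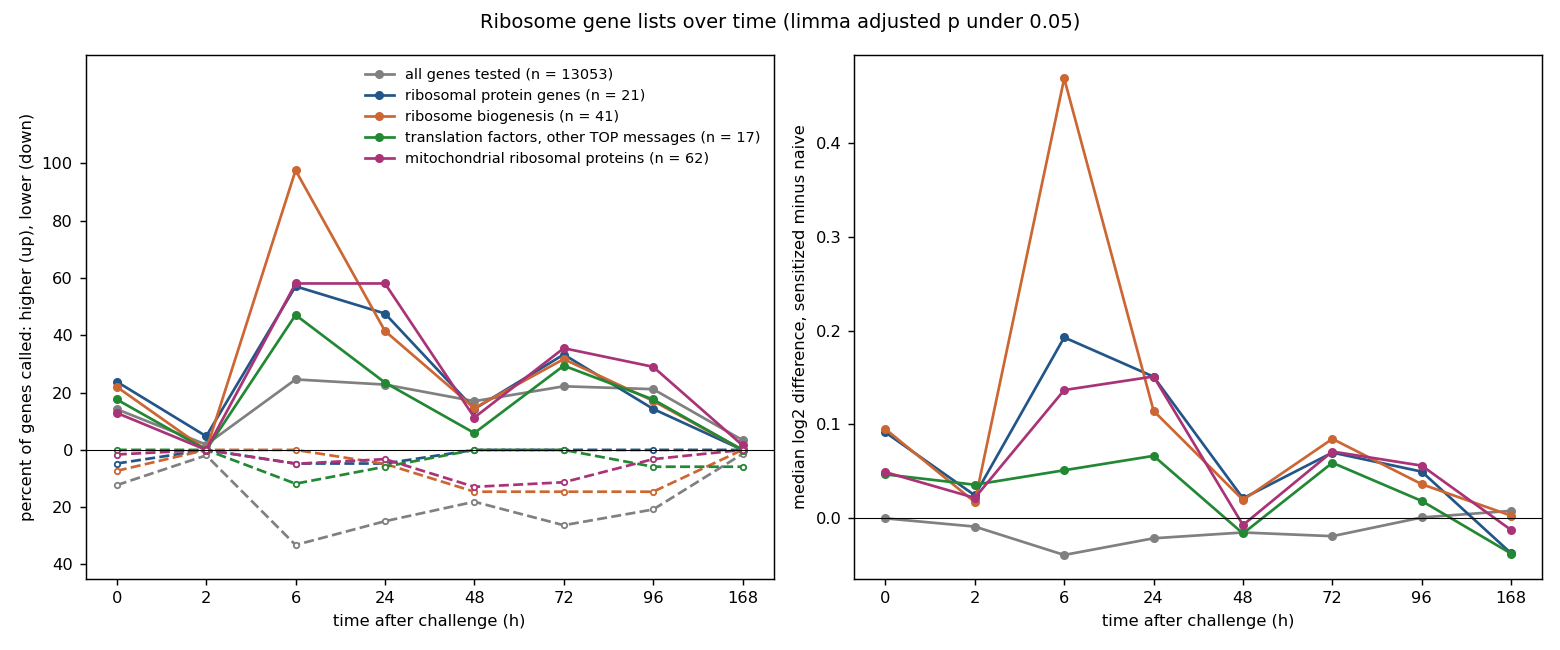
Left, percent of each list's genes called higher (solid, upwards) or lower (dashed, downwards) in sensitized mice; right, the list's median log2 difference; both against time after challenge (horizontal, h). Ribosome biogenesis genes (orange) reach 97.6% higher at 6 h, the 21 ribosomal protein genes (blue) 57.1% and all genes tested (grey) 24.6%, and at 168 h the 4 lists are back near 0.

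Markers of other cells and a measure of RNA quality also differed between the arms at 6 h and at some of the other times. At 6 h 8 of 9 T cell markers, 3 of 5 B cell markers, 3 of 7 neutrophil markers and 12 of 12 cell cycle genes were higher in sensitized mice, while 6 of 10 lung markers were lower and 1 was higher. Over all genes 24.6% were higher and 33.2% lower at 6 h. Without the 7 squamous arrays these counts at 6 h were 8 T cell, 2 B cell and 1 neutrophil marker and 8 cell cycle genes higher, with 5 lung markers lower and 1 higher. In that refit 20.3% of all genes were higher and 28.3% lower. The mean of the T cell markers ran from 8.91 to 9.57 in naive and from 9.31 to 10.18 in sensitized mice at 6 h, and that of the cell cycle genes from 7.53 to 8.87 and from 7.93 to 9.35. All 12 cell cycle genes were also higher at 0, 24, 48, 72 and 96 h, with medians of 0.85 at 0 h and 1.72 at 72 h. The shares of all genes higher at these times were 14.2%, 22.8%, 17%, 22.2% and 21.2%. Without the squamous arrays the cell cycle medians at 0, 6, 24, 48, 72 and 96 h were 0.86, 0.53, 1.63, 1.41, 1.72 and 1.10.

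Adipocyte genes were lower in sensitized mice at several of these times. Of the 6 measured, 5 were lower at 0 h, 2 at 6 h, 5 at 24 h, 1 at 48 h and 2 at 72 h, and none was higher at any of the 8 times. The shares of all genes lower at 0, 6, 24, 48 and 72 h were 12.3%, 33.2%, 24.9%, 18.1% and 26.3%. At 0 h Adipoq, the hormone adiponectin, was lower by 3.03 ± 0.79 (difference -3.03, SE) and Car3, a carbonic anhydrase abundant in fat, by 2.43 ± 0.69 (difference -2.43, SE). Without the squamous arrays the counts lower at 0, 6, 24, 48 and 72 h were 5, 1, 3, 0 and 2. The mean of these genes at 0 h ran from 9.38 to 10.52 in naive and from 7.47 to 9.41 in sensitized mice. Of 2 erythroid genes measured, 1 was lower at 6, 48 and 72 h each. At 6 h it was Slc4a1, the anion exchanger of red cells (-0.77 ± 0.28 SE, limma adjusted p = 0.0133), and without the squamous arrays neither was called there.

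The log2 signal of actin's 3′ control probes minus that of its 5′ probes, which grows as RNA breaks down, was 1.05 in sensitized and 1.23 in naive mice at 6 h (difference -0.18, two-sided exact permutation test adjusted over 8 times, p = 0.0224). At 24 h the difference was -0.13 (exact permutation, adjusted p = 0.0213), and at 168 h it was 0.29 (exact permutation, adjusted p = 0.0319). At 0, 2, 48, 72 and 96 h it did not pass the threshold (exact permutation, adjusted p from 0.064 to 0.841). The part of these cell markers and of RNA quality in the differences of the ribosomal protein genes was not tested.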

How the data were processed

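The authors deposited a log2 signal of each probe set on each array, which the submitters' processing notes say came from RMA. Since RMA usually includes quantile normalization, a change in total signal would not show. Neither the RMA version nor the filter that left 25697 probe sets is given in those sources. The values were used as deposited, with array medians from 9.32 to 9.44. Arrays have no counting depth, and their number limits the precision.

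Probe sets were named by GEO's platform annotation: 22478 had 1 symbol, 259 had several, 2950 were not listed and 10 were controls. The probe set with the highest mean stood for each gene. Mice are separate animals, and replicate numbers follow the order of the samples. Using limma 3.58.1 (R 4.3.3; files read by data.table, version 1.17.8), group means were estimated from 123 arrays in 1 linear model, with 107 residual degrees of freedom. P-values were adjusted by Benjamini-Hochberg within each contrast over 13053 genes, with a threshold of 0.05. Permutation tests used scipy 1.17.1 (Python 3.11.15, numpy 2.4.6, pandas 2.3.3), and figures matplotlib 3.10.9. The fit was tested on simulated data.

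The genes, lists and tests were chosen with earlier results of these data known. Genes named with values were, at each time, up to 4 called members in each direction, the 5 with the widest range of changes since 0 h, all paralogues and Rps19bp1, the 3 brightest and dimmest members, others beside a count, and up to 4 genes of each other list. The brightness bands, the contrasts since 6 h and the comparison of probe sets within mice were added after the values were seen. Alternatives covered the choice of probe set, the scaling, array weights, trend and robust eBayes, fits of 2 groups, a filter on dim genes, arrays left out and each replicate left out. Start windows and their coordinates came from RefSeq's promoter table (GRCm38.p6), and protein sequences were not used here.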

Additional observations from a re-analysis of the deposited data

Results flagged for a closer look

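In 58 groups of 6 to 8 mice whose single values are described, 4 mice stood apart from the rest of their group, and chance alone marks about 1 in 20 groups. Rpl4 was at 14.16 in sensitized replicate 5 at 6 h, below the 14.31 to 14.37 of the others. Rpl7l1 was at 10.01 in sensitized replicate 3 at 6 h, below 10.36 to 10.62. Rpl3l was at 9.96 in naive replicate 3 at 0 h, above 6.54 to 8.07, and at 5.82 in sensitized replicate 1 at 0 h, below 6.33 to 6.76.

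The arm difference had changed since 0 h in 14 cases (limma adjusted p under 0.05). At 6 h the changes were 0.92 for Rpl12, 0.95 for Rpl35, 0.62 for Rps20, 0.61 for Rps18, 0.49 for Rps25, 0.40 for Rpl14, 0.33 for Rps19bp1, 0.21 for Rpl7l1 and -0.26 for Rpl22. Rpl22 had also changed by -0.21 at 2 h and by -0.30 at 24 h. At 24 h Rpl13a had changed by 0.24 and Rpl14 by 0.38, and at 72 h Rpl13a had changed by 0.34.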

How the results depend on the processing

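No paired analysis was possible because the replicate numbers follow the order of the samples and pair no mice. At 6 h the count of called members, 13, moved by less than 1.5 times under every alternative run (10 to 17). Of 44 calls of single members, 29 held in each alternative that could be run for them, 15 were lost in at least 1, and none changed sign. Each call was refitted in 26 or 27 alternatives, since 35 of the 44 had a gene with a mean above 8 and 34 a gene left without cross-matching probe sets. Leaving out 1 replicate at all times gave these ranges of called members: 3 to 7 at 0 h, 0 to 1 at 2 h, 11 to 14 at 6 h, 10 to 12 at 24 h, 2 to 5 at 48 h, 4 to 9 at 72 h, 2 to 5 at 96 h and 0 to 0 at 168 h. For changes since 0 h they were 0 to 1 at 2 h, 8 to 10 at 6 h, 2 to 4 at 24 h, 0 to 1 at 48 h, 1 to 1 at 72 h and 0 to 1 at 168 h, and 2 to 5 for 24 h since 6 h. The call of Rpl22 at 2 h since 0 h was lost without naive replicate 3, 5, 6 or 7 or sensitized replicate 1, 4, 6 or 8. The dimmest probe set per gene gave 5 calls at 96 h and the mean of probe sets 6. Without cross-matching probe sets there were 0 calls at 2 h, 0 for 2 h since 0 h, 1 for 24 h since 0 h, 0 for 72 h since 0 h, and 4 in the naive F test. Median-centred arrays gave 5 at 48 h, 4 at 72 h, 5 at 96 h and 0 for 2 h since 0 h, and quantile normalization 6 at 48 h. Array weights gave 2 at 2 h, 5 at 48 h, 5 at 96 h and 2 at 168 h. They gave 5, 6, 3, 3 and 1 for 2, 24, 48, 72 and 168 h since 0 h, 10 for 24 h since 6 h and 17 in the naive F test. Without squamous arrays there were 1 for 168 h since 0 h and 8 for 168 h since 6 h, without squamous or muscle arrays 0 at 2 h and 1 for 168 h since 0 h, and with genes above a mean of 8 there were 2 for 24 h since 6 h. The cause was not tested. The fit pools the spread of all groups, so SEs do not follow the wider spread of sensitized mice at 6 h.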
